A study of Homo sapiens with 8 samples.

Results

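The account below follows 9 protein-coding genes of SV-HUC1 cells whose roles in urothelium are little known: GLYATL2, PDZK1, CCK, OSBP2, KLHDC7B, CPA4, PLAC8, COMMD6 and SYT8. They are 9 of 58735 genes in the deposited count table, found by their gene names, and all 9 were among the 17413 genes that passed a filter on low counts. They were chosen by their measured log2 ratios of treated over control libraries, for a change in the same direction and of similar size at most replicate numbers. Their change with treatment is therefore given as a description, with no test.

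SV-HUC1 is a cell line made by immortalising human urothelium, the lining of the urinary tract, with SV40. RNA from 8 cultures was sequenced, 4 of them untreated controls and 4 kept with 20 mU/ml of glucose oxidase, and the titles of both groups give 24 h. Glucose oxidase uses up glucose and releases hydrogen peroxide. No culture with inactive enzyme or with peroxide alone was analysed here, so peroxide and the use of glucose cannot be told apart. Each group has biological replicates numbered 1 to 4, which the series text gives as separate experiments. Neither says whether control and treated cultures of equal number came from the same experiment. In whole cultures, fewer cells that express a gene and less RNA per cell cannot be told apart.

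The 9 genes belong to separate protein families. GLYATL2 is an enzyme that joins glycine to fatty acids. PDZK1 is a scaffold that holds membrane transporters at the apical surface of kidney tubule cells. CCK encodes cholecystokinin, a peptide hormone of gut and brain that makes the gallbladder contract, and OSBP2 is an oxysterol-binding protein that takes up sterols and phosphoinositides. KLHDC7B carries kelch repeats and has no well-known function. CPA4 is a zinc carboxypeptidase that trims amino acids from the carboxyl end of peptides, PLAC8 is a small cysteine-rich protein best known from placenta and myeloid cells, COMMD6 is a short member of the COMMD family that helps to return membrane proteins from endosomes to the cell surface, and SYT8 is a synaptotagmin, a family whose paired C2 domains act in vesicle fusion.

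The cells carried part of the urothelial marker set. Of 10 markers, UPK1A, UPK3A and KRT20 had mean levels below 0.1 CPM (counts scaled to library size by TMM) in both groups, while UPK1B, KRT5, GATA3 and PPARG had control means of 48.9 to 209 CPM. KRT5 (log2 change -0.75) and KRT13 (-1.24) were lower and GATA3 (0.52) higher after treatment past an adjusted p of 0.05 in edgeR with the block, GATA3 not with a term that separates replicates 1 and 2 from 3 and 4 (the set term; adjusted p = 0.0614). The summed level of the 10 markers was 1043 to 1527 CPM in controls and 631 to 733 CPM after treatment, a sum carried mainly by KRT13 (mean 788 and 324 CPM) and KRT5 (209 and 124 CPM), while GATA3 and PPARG had higher means after treatment. The part of this shift in the member differences was not tested. The summed level of 4 leukocyte markers was 0.0865 to 0.192 CPM in controls and 0.0386 to 0.506 CPM after treatment. That of 3 endothelial markers was 2.72 to 4.81 and 2.02 to 5.67 CPM, most of it CDH5 (means of 3.45 and 3.25 CPM). That of 4 fibroblast markers was 16.1 to 25.9 and 14.3 to 26.2 CPM, nearly all of it COL1A1. Total counts per library ran from 21437267 to 27183692, with a mean of 22595000 in controls and 25159500 after treatment (two-sided exact permutation test, p = 0.171, smallest possible p 0.0286). Genes with any count numbered 29242 to 31006 in libraries of replicates 1 and 2 and 24385 to 27465 in those of 3 and 4. TMM factors were 1.07 to 1.17 and 0.768 to 0.955, with control 3 at 0.768 and treated 3 at 0.953.

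Stretches before a RefSeq start site of 4 of the genes are shown because they held matches to 3 of the 7 short motifs searched. For OSBP2, GLYATL2 and COMMD6 that start site is an inner one, so the stretch lies inside the gene's annotated span. The annotated span of CPA4 begins at 130293134, within its printed stretch, so the end of that stretch also lies inside the span. The GLYATL2 start is 80 bases from the nearest GENCODE start. RefSeq windows of 250 bases before to 50 bases after a start site (GRCh38.p14) were matched for 8 of the 9 genes, 13 windows in all. Capitals mark matches to TGANTCA (AP-1, the Fos and Jun factors), TGACNNNGC (the core of the antioxidant response element) and TATAAA (the letters of a TATA box), searched on both strands. Each stretch is written 5′ to 3′ on the strand of its gene, and positions count from the start site as 0.
CPA4, positions -60 to -1, chr7:130293101-130293160, plus strand: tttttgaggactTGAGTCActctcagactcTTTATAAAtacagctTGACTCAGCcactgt
GLYATL2, positions -60 to -1, chr11:58844705-58844764, minus strand: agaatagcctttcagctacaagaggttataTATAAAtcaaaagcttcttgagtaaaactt
COMMD6, AP-1 match at -106, chr13:75537917-75537966, minus strand: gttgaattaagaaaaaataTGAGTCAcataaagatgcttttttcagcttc
OSBP2, AP-1 match at -216, chr22:30764018-30764067, plus strand: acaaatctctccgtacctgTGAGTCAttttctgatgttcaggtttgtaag

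The CPA4 stretch held a TATA match at -28, overlapped by a match on the other strand at -30, and 2 AP-1 matches, at -48 and -15. The match at -15 overlaps a match to the antioxidant response element core. Across 35116 promoter windows of the same length, 7.71% held at least 1 AP-1 match and 0.515% held at least 2. A TATA match was present in 11.5% of windows and an antioxidant response element core in 13.3%. COMMD6 had its AP-1 match in the window of an inner start site, and that of its outermost start held 2 antioxidant response element cores, at -22 and 6. CCK had a TATA match at -211 in the window of an inner start site, overlapped by a match on the other strand at -213. Letters of TGACGTCA (the cAMP response element), TGATGCAA (the amino acid response element core), the interferon-stimulated response element core and the NF-kB motif were in 0 of the 13 windows, against 1.85%, 0.866%, 3.57% and 25.6% of all windows. A match is a description of letters, and binding was not measured.

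KLHDC7B and OSBP2 were higher after treatment, and the other 7 genes were lower. The ratio had the same sign at all 4 replicate numbers for each of the 9. Over all genes tested, 16.9% had ratios above 0 at all 4 numbers and 17.1% had ratios below 0. CPA4, PLAC8, COMMD6 and SYT8 had all 4 treated libraries below all controls, a placing that 2.60% of all genes tested shared. Neither KLHDC7B nor OSBP2 had all treated libraries above all controls, as 2.42% of all genes did. In edgeR's quasi-likelihood fit blocked on replicate number, 2 members were called higher and 7 lower, against 7.51% and 6.97% of all genes tested (1308 higher and 1213 lower, or 1675 and 535 when scaled by total counts alone). Without the block edgeR called 0 of 17413 genes, members included (1284 with an unadjusted p below 0.05), and DESeq2 called 36 higher and 40 lower. Since the members were chosen on this contrast, nothing is read from these counts.

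**Figure D1:**
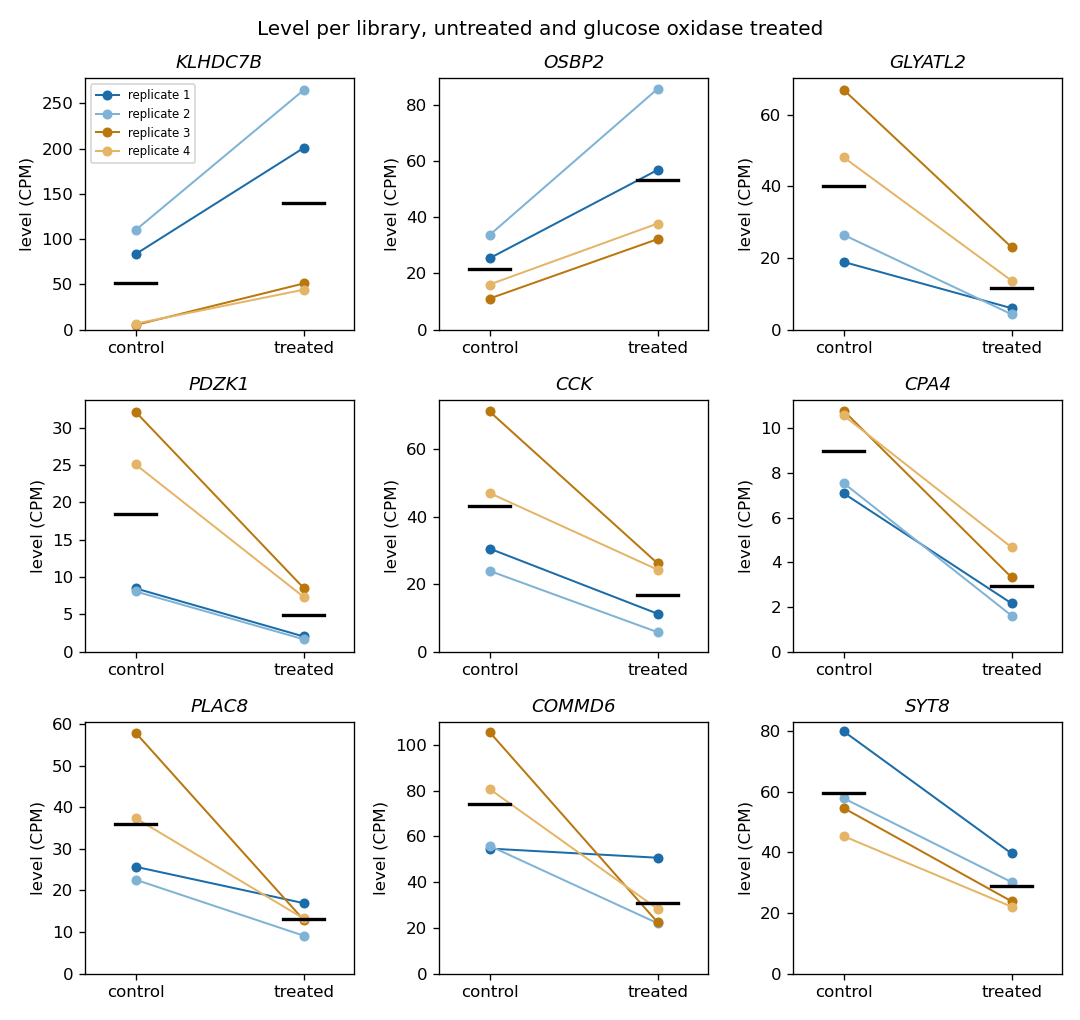
Level in CPM (vertical axis, linear, from 0) of each of the 9 genes in 4 control and 4 treated libraries. Lines join libraries of equal replicate number and black bars are group means. KLHDC7B and OSBP2 are higher at every number and the other 7 genes are lower, and for COMMD6 the line of replicate 1 is nearly flat (54.6 to 50.6 CPM).

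KLHDC7B (ENSG00000130487, chromosome 22, 50545891 to 50551023, plus strand, GRCh38) was at 83.3, 109.8, 4.98 and 6.44 CPM in controls 1 to 4 and at 200.6, 265, 50.9 and 44.0 CPM in treated 1 to 4. Controls 1 and 2 were above treated 3 and 4, so the groups overlapped although every ratio was above 0. Its log2 ratios were 1.27, 1.27, 3.35 and 2.77 at numbers 1 to 4. The group means were 51.1 ± 53.5 and 140.0 ± 110.1 CPM (SD, n = 4). The fitted log2 change was 2.08 (SE 0.23) with the block and 1.45 (SE 0.95) without it.

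OSBP2 (ENSG00000184792, chromosome 22, 30693782 to 30907824, plus strand) was at 25.3, 33.6, 11.01 and 16.01 CPM in controls and at 56.7, 85.6, 32.1 and 37.7 CPM after treatment. Control 2 stood above treated 3, so these groups also overlapped. Its log2 ratios of 1.16, 1.35, 1.55 and 1.24 lay close together, and the fitted change was 1.32 (SE 0.14). EIF4HP2, a pseudogene inside the OSBP2 locus on the same strand, had 1.01 ± 0.71 CPM in controls and 0.944 ± 0.602 CPM after treatment (SD, n = 4).

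GLYATL2 (ENSG00000156689, chromosome 11, 58834065 to 58904215, minus strand) was at 18.9, 26.5, 67.0 and 48.1 CPM in controls and at 5.97, 4.26, 23.0 and 13.7 CPM after treatment. Control 1 was below treated 3. The log2 ratios were -1.66, -2.64, -1.54 and -1.82, and replicate 2 stood lowest. The fitted change was -1.89 (SE 0.16). GLYATL1P2, a pseudogene that overlaps GLYATL2 on the other strand, had at most 1.18 CPM in any library.

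PDZK1 (ENSG00000174827, chromosome 1, 145670852 to 145708148, minus strand) was at 8.47, 8.06, 32.1 and 25.1 CPM in controls and at 2.02, 1.65, 8.53 and 7.33 CPM after treatment. Treated 3 was at the level of controls 1 and 2, yet the log2 ratios ran only from -2.29 to -1.78. The fitted change of -1.99 (SE 0.17) was the lowest of the 9. Its copy PDZK1P1, whose reads the counting may not separate from those of PDZK1, was at 0.0961 to 0.865 CPM in controls and 0.231 to 1.13 CPM after treatment.

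CCK (ENSG00000187094, chromosome 3, 42257825 to 42266207, minus strand) was at 30.6, 23.9, 71.3 and 47.1 CPM in controls and at 11.2, 5.75, 26.2 and 24.3 CPM after treatment. Control 2 lay just below treated 3 and 4. The log2 ratios were -1.44, -2.06, -1.44 and -0.95, and the fitted change was -1.46 (SE 0.16).

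CPA4 (ENSG00000128510, chromosome 7, 130293134 to 130324180, plus strand) was at 7.09, 7.55, 10.8 and 10.6 CPM in controls and at 2.16, 1.61, 3.32 and 4.67 CPM after treatment. The groups did not overlap. The log2 ratios were -1.72, -2.23, -1.70 and -1.18, with a fitted change of -1.68 (SE 0.21). Counts per library were lowest here, at 40 to 220.

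PLAC8 (ENSG00000145287, chromosome 4, 83090048 to 83137075, minus strand) was at 25.7, 22.6, 58.0 and 37.4 CPM in controls and at 17.0, 9.12, 12.9 and 13.3 CPM after treatment. Its control libraries spanned a wider range than its treated libraries. The log2 ratios were -0.60, -1.31, -2.17 and -1.50, and the fitted change was -1.39 (SE 0.18).

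COMMD6 (ENSG00000188243, chromosome 13, 75525219 to 75549439, minus strand) was at 54.6, 55.8, 105.6 and 80.7 CPM in controls and at 50.6, 22.0, 22.4 and 28.3 CPM after treatment. Treated 1 lay just below the lowest control and well above the other treated libraries. The log2 ratio was -0.11 at number 1 and -1.34, -2.24 and -1.51 at numbers 2 to 4, so the change at number 1 was not of similar size. The fitted change was -1.30 (SE 0.21), and -1.69 without replicate 1.

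SYT8 (ENSG00000149043, chromosome 11, 1828307 to 1837521, plus strand) was at 80.1, 58.0, 54.7 and 45.4 CPM in controls and at 39.7, 30.2, 23.9 and 22.1 CPM after treatment. The groups did not overlap. Its log2 ratios of -1.01, -0.94, -1.20 and -1.04 were the closest together of the 9 genes, and the fitted change of -1.05 (SE 0.14) was the smallest in size.

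**Figure D2:**
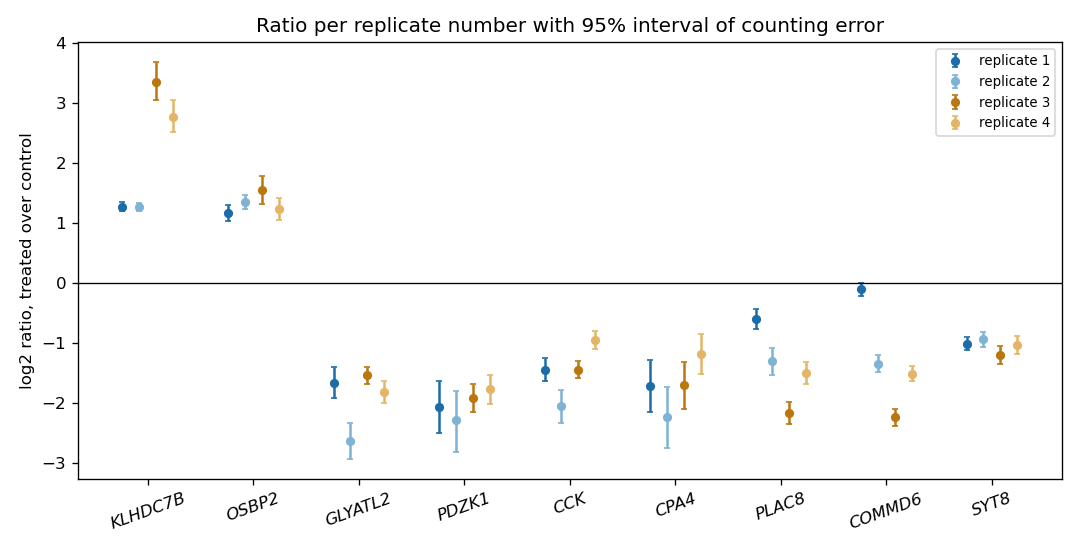
Log2 ratio of treated over control at each replicate number for the 9 genes, with 95% exact binomial intervals that cover counting error only. The 4 intervals of SYT8 share a common value, as do those of PDZK1, while those of KLHDC7B fall near 1.27 and near 3 and those of COMMD6 run from -0.11 to -2.24.

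How alike the 4 ratios were differed between members. The intervals take the library scaling as fixed, and for COMMD6 at number 1 the interval was as wide on either side as the ratio itself. The 4 intervals shared a value for 2 of 9 genes, PDZK1 and SYT8. For OSBP2 the intervals at numbers 1 and 3 missed each other by a small margin. The SD of the 4 ratios, on log2 CPM with a prior count of 2, was 0.11 for SYT8, 0.17 for OSBP2 and 0.20 for PDZK1, below the median of 0.33 over all genes tested. It was 0.41 to 0.49 for CPA4, CCK and GLYATL2, 0.64 for PLAC8, 0.88 for COMMD6 and 1.05 for KLHDC7B. Since the members were chosen on these ratios, the SDs describe them and are no test of the choice.

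Control libraries also differed among themselves, replicates 3 and 4 from 1 and 2. That division was found in the expression values of these libraries and is not in the labels, so it is described here without a test. In controls, mean log2 CPM of KLHDC7B was lower by 4.06 in replicates 3 and 4 (5.71 against 96.5 CPM), a gap wider than either of its ratios with treatment (1.27 in replicates 1 and 2, 3.04 in replicates 3 and 4). The OSBP2 difference in controls was -1.13. Of the lower genes, 6 stood higher in controls 3 and 4: PDZK1 by 1.77, GLYATL2 by 1.34, CCK by 1.10, PLAC8 by 0.95, COMMD6 by 0.74 and CPA4 by 0.54. SYT8 stood lower there, by -0.45, and so differed in sign from the other lower genes. Under treatment PLAC8 was nearly level across the sets (13.04 and 13.1 CPM), and COMMD6 had turned (36.3 CPM in treated 1 and 2, 25.3 CPM in treated 3 and 4).

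**Figure D3:**
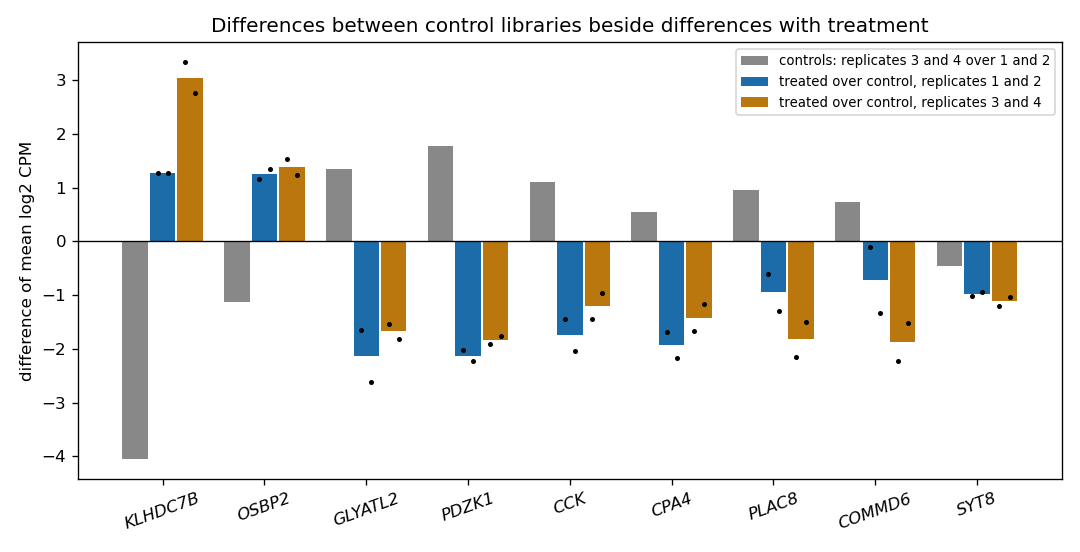
Differences of mean log2 CPM for the 9 genes: grey bars, controls 3 and 4 minus controls 1 and 2; blue and orange bars, treated minus control in replicates 1 and 2 and in 3 and 4, with dots for each replicate number. For KLHDC7B the grey bar (-4.06) is longer than the treatment bars (1.27 and 3.04), and SYT8 is the gene among the 7 lower ones with a grey bar below 0.

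Per gene length, on the scale of the deposited FPKM, COMMD6 had the highest control mean (25.4 ± 8.96), followed by GLYATL2 (21.8 ± 12.3), CCK (20.6 ± 10.6), SYT8 (12.5 ± 2.94), KLHDC7B (9.63 ± 10.01), PLAC8 (9.29 ± 4.40), PDZK1 (7.43 ± 5.03), OSBP2 (3.13 ± 1.39) and CPA4 (2.25 ± 0.54; SD, n = 4). No neighbours in this order differed by more than the larger of their SDs. In treated cultures KLHDC7B was first (26.6 ± 20.6) and CPA4 last (0.733 ± 0.344), and SYT8 (6.05 ± 1.64) and PLAC8 (3.34 ± 0.84) were the neighbours whose difference was larger than the larger SD. In the authors' deposited table the log2 fold changes of the 9 genes ran from -1.93 (PDZK1) to 1.47 (KLHDC7B).

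Across the 8 libraries some of the lower genes ran more alike than others. Pearson r of log2 CPM was 0.98 between GLYATL2 and PDZK1, 0.98 between PDZK1 and CCK, 0.96 between GLYATL2 and CCK, and 0.96 between PLAC8 and COMMD6. SYT8 had r of 0.33 to 0.39 with PDZK1, CCK and GLYATL2 and 0.75 with COMMD6. The higher genes OSBP2 and KLHDC7B had r = 0.92 with each other. These points share 2 groups and the same 8 libraries, so r describes how alike the levels ran and carries no p.

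Among the other 13803 protein-coding genes tested, 2 were taken for each member by the highest r over the 8 libraries. They were C1QTNF2 (0.98) and PDZK1 (0.98) for GLYATL2, PSCA (0.99) and C1QTNF2 (0.99) for PDZK1, and C9orf3 (0.99) and C2orf76 (0.99) for CCK. GNG4 (0.99) and CORO2A (0.99) were nearest to OSBP2. KIF21B and NFKB2, a subunit of NF-kB, were nearest to KLHDC7B (0.997 and 0.996). CAPS and LMO1 (0.98 each) were nearest to CPA4, TPM1 and PRR15L (0.97 each) to PLAC8, PLAC8 and RFLNA (0.96 each) to COMMD6, and TNFRSF14 (0.98) and KRT14 (0.97) to SYT8. COMMD6 thus had the lowest best match. LMO1 was near the floor, with means of 0.823 CPM in controls and 0.235 CPM after treatment, so its r rests on few counts. PSCA, a surface antigen of prostate and urothelial cells, had a log2 change of -0.80 (24.6 to 14.5 CPM), smaller than that of PDZK1 (-1.99). TNFRSF14, nearest to SYT8, had a log2 change of -0.24 (SE 0.14), against -1.05 for SYT8.

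Relatives and partners were listed for each of the 9 members, with some of these data's results known (113 genes in the table, 84 tested), and the words rose and fell are used for those past an adjusted p of 0.05 in edgeR's quasi-likelihood test with the replicate block. Of these 84 genes 3 rose and 13 fell, with a median log2 change of -0.10 against -0.01 over all genes tested. Over all genes 7.51% were called higher and 6.97% lower. The edgeR fit without the block called 0 of them, where 8 had an unadjusted p below 0.05, and DESeq2 without a block called 0. Scaling by total counts alone, under which the median over all genes is 0.10, gave 5 higher and 5 lower.

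**Figure D4:**
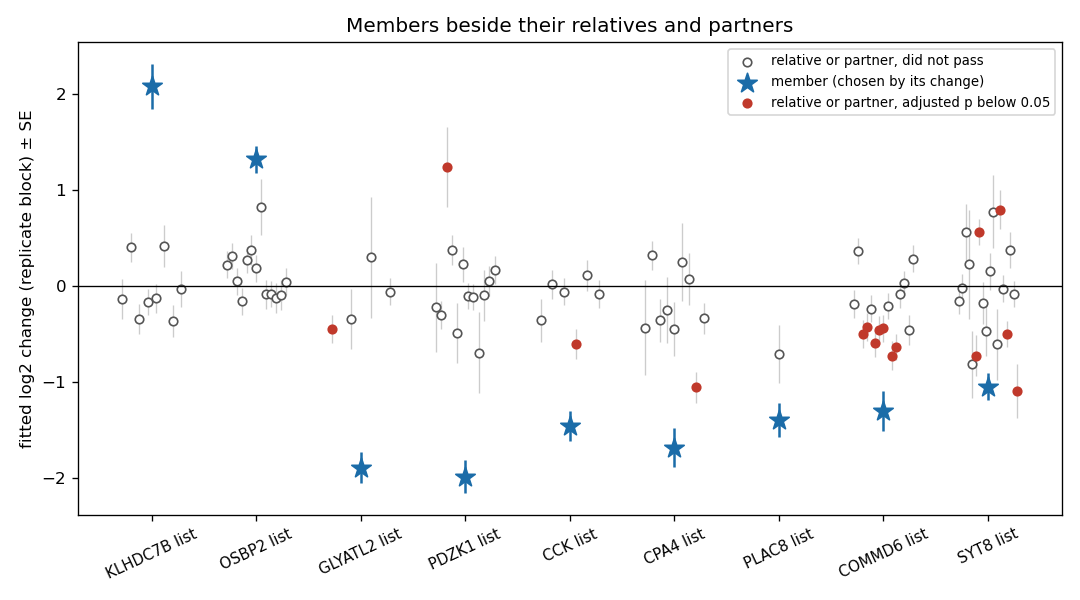
Fitted log2 change with the replicate block (± SE) of each member (star) and of its tested relatives and partners (circles, filled where the adjusted p was below 0.05). The COMMD6 list has 7 filled circles, all below 0, and the KLHDC7B, OSBP2 and PLAC8 lists have 0.

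Among the 9 lists, the COMMD6 list had the most genes that fell. The COMMD proteins form a ring that works with the CCC and retriever complexes in endosomal recycling. Of 15 tested COMMD, CCC and retriever genes 7 fell and 0 rose, with a median log2 change of -0.42, and all 7 were COMMD genes, out of 9 COMMD relatives tested. Over all genes tested, 6.97% were called lower and 7.51% higher. Without the block, edgeR and DESeq2 each called 0 of the 15. COMMD8 was at 122.6, 87.0, 157.5 and 118.1 CPM in controls and at 77.5, 38.2, 97.6 and 91.1 CPM after treatment (log2 change -0.73, SE 0.15, edgeR adjusted p = 0.0019). COMMD9 changed by -0.64 (SE 0.14, edgeR adjusted p = 0.00269). Each of their 4 ratios was below 0. The CCC subunits CCDC22 (log2 change -0.18) and CCDC93 (0.37) and the retriever subunits VPS35L (0.29), VPS26C (0.03) and VPS29 (-0.46, edgeR adjusted p = 0.0511) did not pass. The count of 7 was 2 with the set term, 3 with total counts (with 1 gene higher), 4 with no filter on low counts, and 5, 5, 3 and 4 without replicate 1, 2, 3 and 4. Treatment changes also varied with gene length: the median log2 change was -0.19 in the shortest of 10 equal classes of genes and 0.18 in the longest. The 15 genes had a median exon length of 3317 bases against 4325 over all genes tested. The class that holds this length (2816 to 3555 bases) had a median log2 change of -0.07. The part of length in the change of the 15 genes was not tested.

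LXN, which encodes latexin, an inhibitor of metallocarboxypeptidases such as CPA4, fell. LXN was at 19.3, 24.2, 100.4 and 76.0 CPM in controls and at 13.8, 7.68, 42.1 and 42.2 CPM after treatment. Treated 3 and 4 were above controls 1 and 2, and the fall was seen at each replicate number (log2 change -1.05, SE 0.16, edgeR adjusted p = 0.000116, and 0.00369 with the set term). Of the other 8 carboxypeptidase relatives tested 0 passed, among them CPD (log2 change 0.32) and RARRES1, a latexin-like protein (-0.33), where 2 had an unadjusted p below 0.05 and DESeq2 with the block called 1 gene in the whole list. Beside these counts, 7.51% of all genes tested were called higher and 6.97% lower. The sister enzymes CPA1, CPA3 and CPA5 had too few counts to be tested, with CPA3 at 0 in all 8 libraries.

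In the synaptotagmin list 2 of 18 tested genes rose and 3 fell, beside 7.51% and 6.97% of all genes. SYT14 rose (34.7 ± 2.68 CPM in controls, 51.3 ± 5.51 CPM after treatment; SD, n = 4; log2 change 0.56, edgeR adjusted p = 0.00692), with all treated libraries above all controls. SYT7, a calcium sensor of slow vesicle release, rose (5.43 ± 1.47 CPM in controls, 9.94 ± 5.38 CPM after treatment, log2 change 0.79, edgeR adjusted p = 0.00948), and did not pass with the set term (adjusted p = 0.0699). SYTL5 (log2 change -1.09), SYTL2 (-0.50) and SYT12 (-0.72, named after its value was seen) fell, of which SYTL2 missed with that term (edgeR adjusted p = 0.0593). When scaled by total counts alone, SYTL2 and SYT12 did not pass (edgeR adjusted p = 0.0721 and 0.0736), while SYTL5 did (0.0377).

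Transcripts of the CCK receptors were at or near 0. CCKAR had 0 counts in all 8 libraries, which allows up to 3 counts in each, and CCKBR had 16 counts in all. Of 6 tested genes in the CCK list, which holds enzymes that process peptide hormones, PCSK5, a proprotein convertase, fell from 15.9 ± 3.51 to 10.4 ± 1.97 CPM (SD, n = 4; log2 change -0.60, edgeR adjusted p = 0.011, and 0.0585 when scaled by total counts alone). The share of all genes tested that was called lower was 6.97%. Convertases PCSK1 and PCSK2, which cut the hormone precursor in endocrine cells, had 27 and 6 counts in all. The summed level of 6 endocrine markers was 8.35 to 15.3 CPM in controls and 7.06 to 11.7 CPM after treatment. Among them SYP fell (log2 change -0.59, edgeR adjusted p = 0.0426, and 0.0678 with the set term), CHGA was at 2.62 CPM in controls and 3.45 CPM after treatment (log2 change 0.46) and CHGB had a log2 change of 0.09, neither of which passed, and INSM1 and PCSK2 were below 0.1 CPM. The part of such cells in the CCK difference was not tested.

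For the other members few relatives passed, beside 7.51% of all genes tested called higher and 6.97% lower. With lists this short, these counts do not set a list apart from all genes. PDZK1IP1, a small membrane protein that binds PDZK1, rose (0.507 ± 0.084 CPM in controls, 1.38 ± 0.93 CPM after treatment; SD, n = 4; log2 change 1.24, edgeR adjusted p = 0.0431), opposite to PDZK1 and at low counts. It did not pass with the set term (adjusted p = 0.0646). The sister scaffolds SLC9A3R1 (log2 change 0.05) and SLC9A3R2 (0.17) and the partner SCARB1 (0.38) did not pass. The summed level of 4 proximal tubule markers was 1.60 to 2.77 CPM in controls and 0.926 to 1.79 CPM after treatment, where SLC34A1 (edgeR adjusted p = 0.284) and AQP1 (0.25) did not pass, and their part in the PDZK1 difference was not tested. FAAH, a hydrolase of fatty acid amides in the GLYATL2 list, fell (log2 change -0.45, edgeR adjusted p = 0.0381). FAAH did not pass with the set term (edgeR adjusted p = 0.0795) or when scaled by total counts alone (0.183). GLYATL1 did not pass (-0.35) and GLYATL3 had 0 counts. Of 13 oxysterol-binding relatives and anchors 0 passed, where 3 had an unadjusted p below 0.05 and DESeq2 with the block also called 0. The OSBP2 change of 1.32 compares with -0.16 to 0.82 in these relatives, of which OSBPL6 was the highest. Of 8 KLHDC genes, with KLHDC7A (log2 change 0.42) among the 8, 0 passed. Of them 3, not KLHDC7A, had an unadjusted p below 0.05, and DESeq2 with the block called 0. CNFN, a PLAC8 domain protein of cornified cells, did not pass (-0.71, edgeR adjusted p = 0.119).

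Genes next to the members on the chromosome were also compared. Of 18 nearest protein-coding genes on either side 12 were tested, of which 2 rose and 4 fell, beside the same 7.51% and 6.97% of all genes. TNNI2, 1468 bases beyond SYT8 on the same strand, was at 5.14, 3.42, 6.14 and 4.81 CPM in controls and at 3.34, 2.49, 1.22 and 1.54 CPM after treatment (log2 change -1.21, SE 0.27, edgeR adjusted p = 0.00343). Its groups did not overlap, and it was the neighbour that also passed with the set term (adjusted p = 0.0199). UCHL3, whose start lies 41 bases from that of COMMD6 on the other strand, fell (-0.49, edgeR adjusted p = 0.0327), as did COPS4 (-0.55) and COQ2 (-0.50) on either side of PLAC8. When scaled by total counts alone, UCHL3, COPS4 and COQ2 did not pass (edgeR adjusted p = 0.126, 0.0712 and 0.0711). TRAK1 near CCK (0.45) and MORC2 near OSBP2 (0.42) rose, the former against the direction of its neighbour. KLHDC7B has SYCE3 89 bases away, which was too low to test (0.296 CPM in controls, 0.246 CPM after treatment).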

How the data were processed

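RNA-seq gene counts of 4 control and 4 treated SV-HUC1 libraries were used. Per the submitters' processing notes, the tools were featureCounts 1.5.0-p3, HISAT2 2.0.5 and DESeq2 1.20.0, on GRCh38.p13. Whether strand was used is not stated there. The deposited count table holds raw whole numbers for each gene, and 58676 of 58735 genes have the coordinates of GENCODE release 29. The authors' FPKM values are per gene length and depth. The deposited signal columns are counts divided by 1 size factor per library, as the values show, and the authors' log2 fold changes were copied from the comparison table. Counts were tested with edgeR 4.0.16 in R 4.3.3 (quasi-likelihood, TMM, filterByExpr, Benjamini-Hochberg over 17413 genes, threshold 0.05), with the group as the planned term. DESeq2 1.42.0 was an alternative. The rule for pairing asked for correlations over 0.1 between same-number deviations from the group mean, which were 0.532, 0.678, 0.590 and 0.503. Differently numbered libraries within 1 and 2 or 3 and 4 also passed it, at 0.443 to 0.652. The rule therefore cannot tell pairing by number from the division of 1 and 2 against 3 and 4. The blocked fit is quoted under this rule, and the set term separates replicates 1 and 2 from 3 and 4. Counting intervals are exact (Clopper-Pearson, 95%, scipy 1.17.1). Members and lists were chosen with earlier results of these data known. Named genes are the 9 members, up to 2 called relatives per list and direction, nearest protein-coding neighbours, and the 2 genes of highest r per member. Receptors or sister genes at or near 0 are named too. Other relatives that did not pass, and SYT12, were named after their values were seen.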

Additional observations from a re-analysis of the deposited data

How the results depend on the processing

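The fit chosen first, edgeR without the block, called 0 of 17413 genes in either direction (1284 with an unadjusted p below 0.05), and 0 relatives and partners higher and 0 lower. Calls of all genes, higher and lower, were 1308 and 1213 with the replicate block, 648 and 534 with the set term, 36 and 40 in DESeq2 without block, 1210 and 1301 in DESeq2 with replicate block, 1239 and 1329 with the block and RLE size factors, 1675 and 535 with the block and total counts, 18 and 16 with no filter and no block, and 1317 and 976 with no filter and the block. With the block and each replicate number left out they ran from 623 to 969 and from 542 to 883. Relatives and partners called higher and lower were 3 and 13 with the replicate block, 1 and 6 with the set term, 2 and 14 in DESeq2 with the block, 3 and 14 with RLE, 5 and 5 with total counts, 4 and 9 with no filter and the block, and 2 to 3 and 7 to 9 with a replicate number left out. Member log2 changes kept their sign and lay within 1 SD of the 4 ratios in 135 of 135 alternative values. Those of KLHDC7B ran most widely, from 1.47 to 2.41. The SD was each member's own, so the tolerance was widest for the genes whose ratios differed most. Members were also chosen for ratios in the same direction, so the count of 135 is no test of how stable the changes are. Of the 18 genes most like a member, 16 were in the top 1% by Spearman rho.

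Depth limits the members with few counts, PDZK1 and CPA4, whose intervals at replicate 2 ran from -2.81 to -1.80 and from -2.76 to -1.73 on the log2 scale. Intervals cover counting error only.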
